A study of Mus musculus with 12 samples.

Results

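The comparison described here is the differentiation of LIGHT-overexpressing 3T3-L1 cells. This mouse line holds adipose precursors, and LIGHT is a cytokine of the tumour necrosis factor family encoded by Tnfsf14. It rests on the 6 libraries whose labels name LIGHT overexpression, 3 undifferentiated and 3 differentiated, of 12 libraries in the series. The other 6 libraries are control 3T3-L1 cells at the same stages, and they enter only where the responses of the 2 lines are compared. Undifferentiated cells grew in DMEM with high glucose, 10% fetal bovine serum and penicillin-streptomycin. Differentiated cells were kept for 48 h in that medium with dexamethasone at 2 µg/ml, IBMX at 0.5 mM, rosiglitazone at 1 µM, triiodothyronine at 1 nM, insulin at 5 µg/ml and indomethacin, and then in maintenance medium with rosiglitazone, triiodothyronine and insulin at the same doses. No source used here gives the day of harvest, so the effect of the agents cannot be told apart from that of time, nor the promoter behind the overexpression, nor whether the line is 1 clone. Whether the 3 libraries of a group are from separate cultures is not stated in the labels, and every p-value therefore rests on the spread between these libraries, which may be technical.

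In adipogenesis, hormones that act through the glucocorticoid receptor, cyclic AMP and insulin switch on C/EBP factors and then PPARγ, the nuclear receptor that turns on genes of lipid storage, glucose uptake and adipokines. Precursors stop dividing, round up and take down much of their actin fibre network as they fill with lipid. Rosiglitazone is a ligand of PPARγ, and with thyroid hormone it is used to steer fat cells towards a beige state, in which mitochondria can release energy as heat. LIGHT acts through the lymphotoxin beta receptor (Ltbr) and HVEM (Tnfrsf14), which feed into NF-κB.

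Tnfsf14 (gene 50930) was read first, since it checks the labels. It had 38, 53 and 58 expected counts in the undifferentiated libraries and 0, 148 and 122 in the differentiated ones, that is 2.25, 2.77 and 3.12 before and 0, 7.83 and 7.46 after in CPM, the unit of counts scaled to a common library size, here with TMM. The library labelled differentiated LIGHT 1 therefore held none of the overexpressed transcript and goes against its label (0 counts allow up to 3, or 0.176 CPM), while differentiated LIGHT 2 and 3 lay above all undifferentiated libraries. It also stood apart across the transcriptome: its counts differed from those of differentiated LIGHT 2 and 3 with a chi-square per gene of 41 and 36.2, against 3.55 between those 2 and 2.52 to 7.35 among the undifferentiated libraries. Its score on the second principal component, 21.2, was like those of differentiated control 2 (21.9) and 3 (19.4) and unlike those of differentiated LIGHT 2 (-22.3) and 3 (-19.4). It is called the doubted library below. It was kept in its labelled group, and results are given as labelled and, where the repeat changes them, without it, that is over 5 libraries. The 6 libraries held 16506008 to 19050595 expected counts over 14812 to 14994 listed genes, and a gene that a library's table does not list was read as 0. Values are given in the order of libraries 1, 2 and 3, means as mean ± SD over those 3 libraries, and a number after "log2" in brackets is the log2 fold change, differentiated over undifferentiated, of a gene.

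As labelled, Tnfsf14 did not pass edgeR's test (log2 0.92, with SE 0.89 and adjusted p = 0.402), and without differentiated LIGHT 1 it was higher after differentiation (log2 1.49, adjusted p = 7.5e-06). The tables hold 1 value per gene and do not part an introduced copy from the cell's own. Ltbr, a receptor of LIGHT, stood at 131, 131 and 139 CPM before and 128, 171 and 174 CPM after differentiation, with the lowest differentiated value in the doubted library. It did not pass as labelled (log2 fold change 0.24, adjusted p = 0.103) and passed without that library (log2 0.37, adjusted p = 1.0e-05). Tnfrsf14, the other receptor, gave 14, 26 and 17 and 14, 11 and 18 counts, groups that overlapped (log2 fold change -0.29, adjusted p = 0.541).

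Promoter sequence is shown for 2 genes each of 3 lists in which most members fell, chosen because they carry a short motif that was found more often in the promoters of their list than in those of all genes tested. Most promoters of the interferon and actin lists did not hold theirs. Promoters are those of RefSeq on the mouse build GRCm38.p6, 250 bases before the annotated start on the gene's own strand, 5′ to 3′, with motif matches in capitals. The deposited tables hold no positions and the submitters' processing notes name the build mm8, so these coordinates belong to GRCm38.p6 alone. Isg15 lies at chr4:156200819-156201068 (minus strand) and Oas1a at chr5:120907526-120907775 (minus strand), and both are interferon-stimulated genes. Capitals in them mark GAAANNGAAA, the core of the interferon-stimulated response element. Top2a lies at chr11:99024190-99024439 (minus strand) and Cdc20 at chr4:118437344-118437593 (minus strand), and both act in mitosis. Capitals in them mark CCAAT and TTTGAA, the core of the cell cycle homology region. Cnn2 lies at chr10:79988350-79988599 (plus strand) and Myl9 at chr2:156775214-156775463 (plus strand), and both encode actin-binding or myosin proteins. Capitals in them mark the CArG box, the site of serum response factor. Each motif was searched on both strands, and overlapping matches were counted, so that Isg15 held 3 matches, Oas1a 2, Top2a 6 of CCAAT and 2 of TTTGAA, and Cdc20 2 and 1.
Isg15: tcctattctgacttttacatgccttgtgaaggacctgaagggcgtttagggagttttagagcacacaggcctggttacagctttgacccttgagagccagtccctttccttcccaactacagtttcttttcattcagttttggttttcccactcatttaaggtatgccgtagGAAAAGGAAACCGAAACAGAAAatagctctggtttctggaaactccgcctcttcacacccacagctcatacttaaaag
Oas1a: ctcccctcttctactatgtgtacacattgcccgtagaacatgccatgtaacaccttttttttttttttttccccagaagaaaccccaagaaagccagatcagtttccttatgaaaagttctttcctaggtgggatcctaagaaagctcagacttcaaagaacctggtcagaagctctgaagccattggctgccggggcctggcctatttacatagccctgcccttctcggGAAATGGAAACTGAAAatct
Top2a: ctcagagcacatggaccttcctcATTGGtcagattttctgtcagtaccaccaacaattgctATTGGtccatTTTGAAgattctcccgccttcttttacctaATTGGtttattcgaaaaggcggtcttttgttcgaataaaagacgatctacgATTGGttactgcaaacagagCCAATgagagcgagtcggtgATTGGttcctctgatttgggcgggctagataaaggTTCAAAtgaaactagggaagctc
Cdc20: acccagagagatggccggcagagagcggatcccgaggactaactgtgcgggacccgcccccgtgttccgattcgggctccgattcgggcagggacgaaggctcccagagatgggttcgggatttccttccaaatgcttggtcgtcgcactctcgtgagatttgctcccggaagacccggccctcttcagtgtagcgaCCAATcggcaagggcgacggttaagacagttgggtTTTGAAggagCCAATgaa
Cnn2: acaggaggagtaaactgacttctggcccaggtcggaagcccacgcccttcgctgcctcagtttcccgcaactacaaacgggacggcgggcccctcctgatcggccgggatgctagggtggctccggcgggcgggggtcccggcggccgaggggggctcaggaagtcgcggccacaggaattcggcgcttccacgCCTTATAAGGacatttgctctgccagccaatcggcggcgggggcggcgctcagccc
Myl9: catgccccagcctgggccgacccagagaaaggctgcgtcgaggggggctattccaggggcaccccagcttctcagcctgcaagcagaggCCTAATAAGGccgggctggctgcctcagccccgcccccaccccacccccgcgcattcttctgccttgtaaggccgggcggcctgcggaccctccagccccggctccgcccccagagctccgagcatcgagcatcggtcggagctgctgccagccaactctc

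GAAANNGAAA stood in 11 of 33 promoters of the interferon list, 33.3%, against 2.66% of 12347 promoters of all genes tested. CCAAT stood in 26 of 33 promoters of the mitosis list, 78.8%, against 36.2%, and TTTGAA in 15 of 33, 45.5%, against 10.6%. The last share depends on the window: with the 50 bases after the start added it was 78.8%, against 12.0%. In the DNA replication list, which fell too, CCAAT stood in 23 of 43 promoters, 53.5%. TTTGAA stood in only 6 of those 43, 14.0%, near the 10.6% of all genes tested. The CArG box stood in 6 of 31 promoters of the actin list, 19.4%, against 1.15%, but also in 5 of 41 promoters of the adipogenic transcription factors, 12.2%, most of which did not fall. Among the lists that rose, TTNCNNAA, a loose form of the C/EBP site, stood in 5 of 29 promoters of the lipid droplet list, 17.2%, against 28.3%. A match is a description of letters and not of a bound site, and lists whose members were known to move together were chosen for it.

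The response was broad, and its higher and lower calls were nearly balanced. Of 12564 genes tested, 7429 passed edgeR's quasi-likelihood test with Benjamini-Hochberg adjustment, 59.1%, with 3771 higher (30.0%) and 3658 lower (29.1%), and the median over all genes tested was 0.00 in log2. Among the 12159 genes with a symbol 1432 rose and 999 fell by over 1 in log2, and 341 rose and 136 fell by over 3. Without differentiated LIGHT 1, 8422 of 12775 genes passed, 65.9%. Of the 7429 genes, 7309 kept their call and direction, 120 lost it, 0 turned, 1018 that had been tested without a call gained one, and 95 were called that had not been tested as labelled. Because 59.1% of all genes passed, the share of a list that passed is set against 30.0% higher and 29.1% lower below, and a share near these is not a result about the list. The 42 lists described held 1432 entries, of which 1401 were listed in some library and 1201 passed the low-count filter. Of these, 45 passed it only through the differentiated group and 13 only through the undifferentiated group, so they had to differ. In bulk RNA fewer cells of a type and less RNA per cell cannot be told apart.

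**Figure D1:**
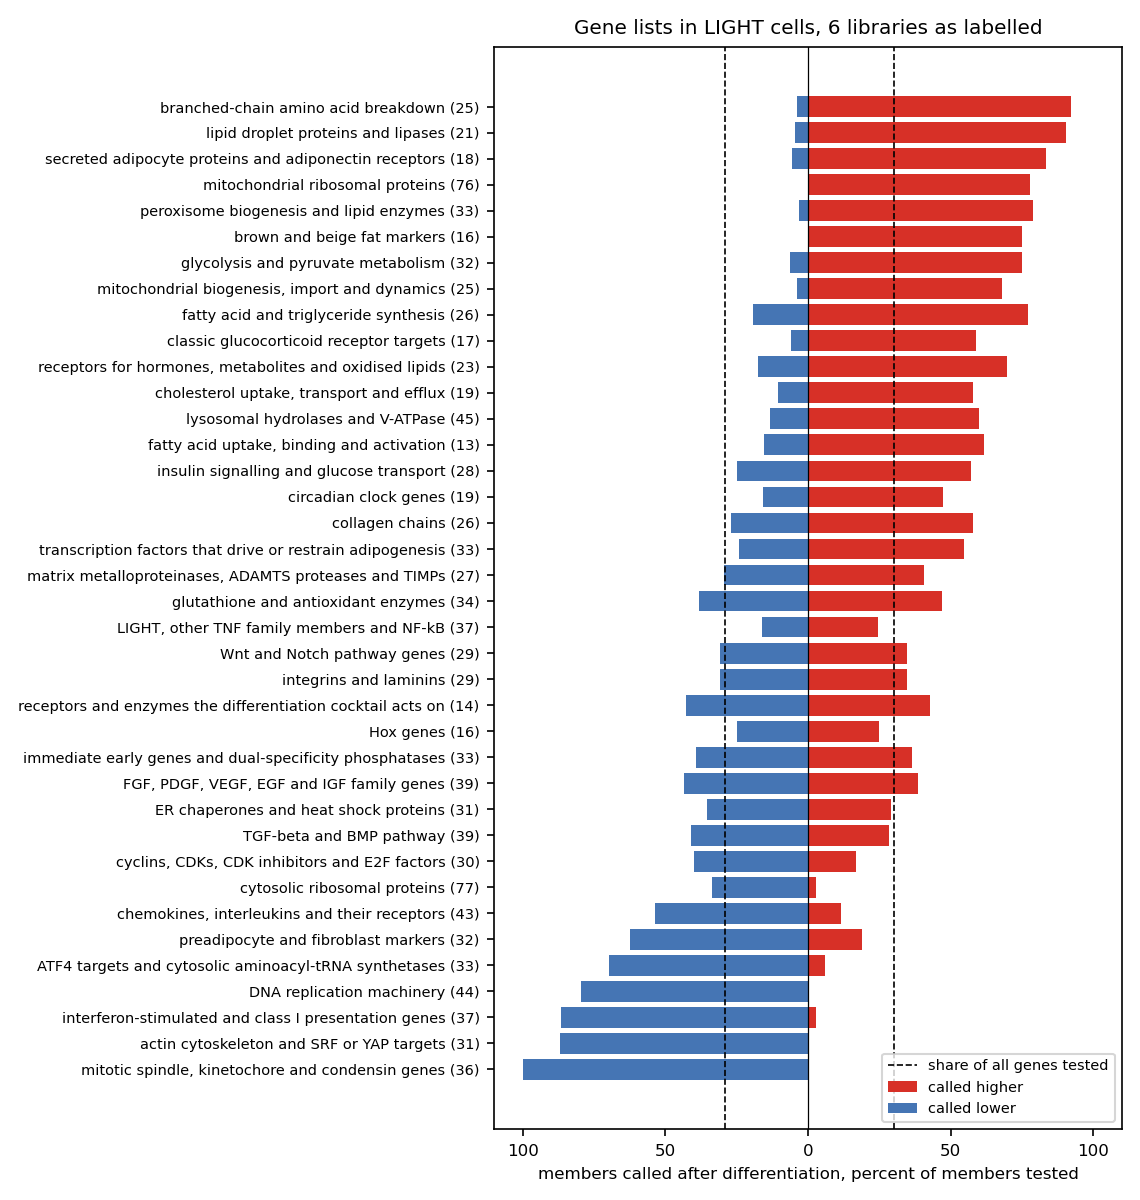
Share of tested members called higher (to the right) or lower (to the left) after differentiation of LIGHT cells, in percent, for each list with at least 10 tested members (number tested in brackets). Dashed lines mark the shares of all genes tested, 30.0% and 29.1%. All 36 mitosis genes were called lower, and 23 of 25 genes of branched-chain amino acid breakdown higher.

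The largest rises were in genes that the undifferentiated libraries barely held. Slc2a4, the insulin-responsive glucose transporter GLUT4, had 1, 0 and 0 counts before and 1460, 842 and 727 after, so that the groups were far apart and the doubted library was highest. The ratio of summed CPM was 3239.7 (95% counting interval 581 to 128002). Cfd, the adipokine adipsin, went from 1, 1 and 0 to 1483, 1005 and 777 counts, a ratio of 1746 (95% counting interval 483 to 14424), again with the doubted library highest. Olr1, the receptor for oxidised low-density lipoprotein LOX-1, had 0 counts in all 3 undifferentiated libraries and 343, 411 and 377 after, at least 403-fold higher taking 3 counts over the group as the lowest level that can be seen. Hif3a, a hypoxia-inducible factor subunit, was likewise at 0 before and at 121, 189 and 157 counts after (at least 166-fold), and so was Ppp1r1a, an inhibitor of protein phosphatase 1, at 61, 138 and 69 (at least 95.5-fold). In Timp4, an inhibitor of matrix metalloproteinases, the doubted library stood far above the rest: counts were 1, 0 and 0 before and 771, 352 and 287 after, a ratio of 1508 (95% counting interval 270.2 to 59607). Sult1a1, a sulfotransferase, and Lgals12, a galectin of lipid droplets, went from 0, 1 and 0 and 0, 1 and 0 counts to 400, 513 and 477 and 463, 392 and 323. Mrap, the accessory protein of the ACTH receptor, rose from 4, 4 and 1 to 2891, 2899 and 2630 counts (log2 9.91, with SE 0.20 and adjusted p = 2.9e-08). All genes named in this paragraph passed the low-count filter only through the differentiated group, so they had to differ.

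The largest falls were mixed in function. Ankrd1, a target of the mechanosensitive factor YAP, stood at 21.6, 18.6 and 20.5 CPM before and 0.505, 0.159 and 0.245 CPM after (log2 -6.07, with SE 0.26 and adjusted p = 5.6e-07). Cxcl5, a neutrophil chemokine, went from 59.0, 57.8 and 62.4 to 2.33, 1.27 and 1.59 CPM (log2 -5.12), and Il1rl1, the receptor of IL-33, from 22.1, 18.8 and 20.9 to 0.820, 0.635 and 0.306 CPM (log2 -5.11). In each of these the groups were far apart and the doubted library was the highest after differentiation. Siglecg, a sialic acid-binding lectin, Slpi, a secreted protease inhibitor, Fgd3, a guanine nucleotide exchange factor, and Taf7l, a TAF7-like factor, fell with log2 fold changes of -5.48, -4.77, -4.61 and -4.93. Oas1g, Oas3, Tgtp1 and Apol9b, which belong to interferon-induced families, fell with log2 fold changes of -4.97, -4.57, -4.64 and -4.52. Usp17le, a deubiquitinase gene, fell too (log2 -5.47), and it, Oas1g, Tgtp1 and Apol9b have near-identical copies between which reads can be split.

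**Figure D2:**
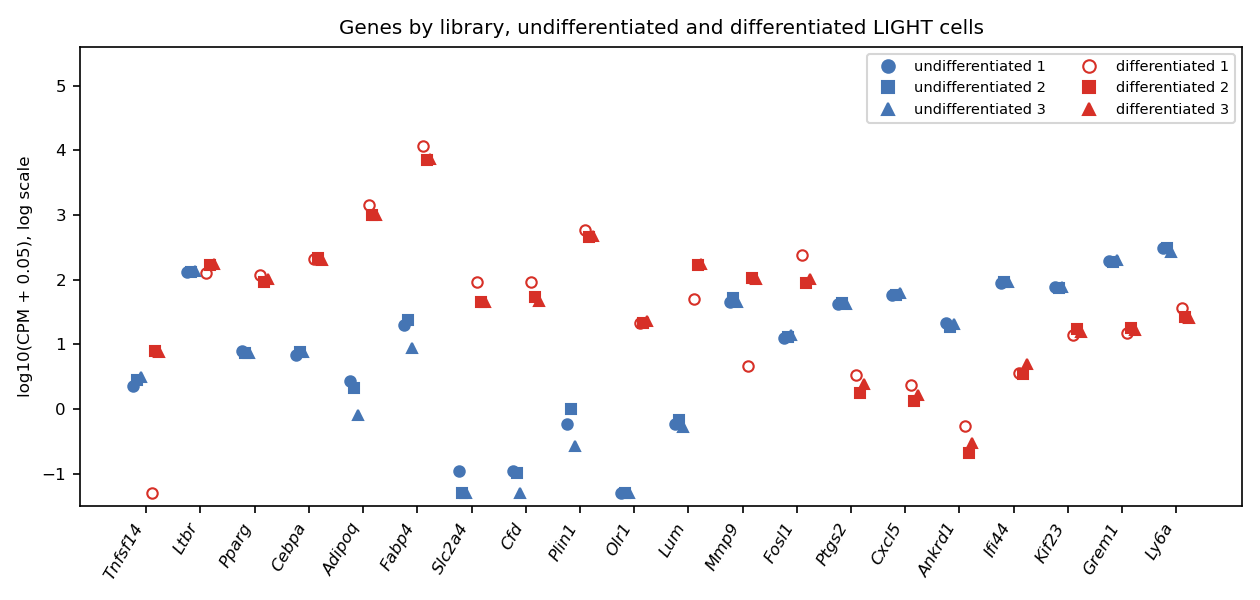
Values of 20 named genes in each of the 6 libraries, as log10(CPM + 0.05), undifferentiated in blue and differentiated in red, with 1 symbol per replicate. The open red circle is the library labelled differentiated LIGHT 1, which lies at the bottom for Tnfsf14 and below the undifferentiated libraries for Mmp9, and with the other differentiated libraries for Cebpa, Olr1 and Ifi44.

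Targets of the induction medium were themselves changed. Of 14 tested receptors and enzymes that its agents act on, 6 rose (42.9%) and 6 fell (42.9%). Pparg, the target of rosiglitazone, stood at 7.86, 7.32 and 7.20 CPM before and 118, 93.0 and 103 CPM after differentiation (log2 3.81, with SE 0.11 and adjusted p = 9.4e-08). Its partner Rxra (log2 0.97) and Pde3b, a phosphodiesterase of the kind IBMX blocks (log2 1.54), rose too. Both cyclooxygenases, the enzymes indomethacin blocks, fell: Ptgs2 went from 42.1, 43.8 and 42.0 to 3.28, 1.69 and 2.39 CPM (log2 -4.13, with SE 0.18 and adjusted p = 6.6e-07) and Ptgs1 from 319.8 ± 8.05 to 95.2 ± 3.37 CPM (SD, n = 3; log2 -1.75). Of 17 known targets of the glucocorticoid receptor 10 rose and 1 fell, and 12 rose and 3 fell without the doubted library, with 1 of the 17 passing the filter only through the differentiated group. Zbtb16, the factor PLZF, rose from 1, 5 and 1 counts to 264, 284 and 247 (log2 6.85, with SE 0.32 and adjusted p = 8.6e-07), and Hsd11b1, which regenerates active glucocorticoid, from 0.532, 0.575 and 0.484 to 57.1, 33.0 and 34.3 CPM (log2 6.27). Zbtb16 was the member that passed the filter only through the differentiated group, so it had to differ. Glul, glutamine synthetase, rose from 16.8 ± 1.61 to 265 ± 7.58 CPM (log2 3.97). Sgk1, a kinase of sodium transport, was the member that fell as labelled (log2 -0.71, adjusted p = 0.0450), with 38.1, 82.3 and 88.7 CPM after differentiation against 123, 108 and 111 before, and its call was lost without any 1 of the 3 undifferentiated libraries. Dusp1, a phosphatase of MAP kinases (log2 -0.18 as labelled, adjusted p = 0.280, and -0.36 without, adjusted p = 0.00132), and Ddit4, an inhibitor of mTOR (0.11, adjusted p = 0.645, and -0.20, adjusted p = 0.00924), passed as lower only without the doubted library. Tsc22d3, the target GILZ, passed only without the doubted library (log2 0.26 as labelled, adjusted p = 0.130, and 0.43 without, adjusted p = 3.4e-06).

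Transcription factors of adipogenesis rose more often than they fell, 18 against 8 of 33 tested. Cebpa stood at 6.86, 7.63 and 7.69 CPM before and 210.2, 218 and 204 CPM after (log2 4.83, with SE 0.08 and adjusted p = 2.1e-08), with all 3 differentiated libraries close together. Klf15 (log2 5.58) and Nr1h3, the liver X receptor α (log2 5.00), rose too. Cebpb, which acts early, stood at 269, 276 and 310.4 and 402, 324 and 314 CPM (log2 0.28, adjusted p = 0.0516), and it passed without the doubted library (log2 0.16, adjusted p = 0.0304). Gata3, which restrains the program, fell from 10.8 ± 0.691 to 3.37 ± 1.15 CPM (log2 -1.67), and so did Foxc2 (log2 -1.31) and Klf4 (log2 -1.81), a factor that promotes adipogenesis in its first hours.

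Lipid storage genes formed 1 of the most uniform groups. Of 24 lipid droplet proteins and lipases 21 were tested and 19 rose, 2 of them passing the filter only through the differentiated group. Plin1, the coat protein perilipin, stood at 0.532, 0.941 and 0.215 CPM before and 598, 464 and 475 CPM after (log2 9.80, with SE 0.26 and adjusted p = 6.4e-08), and Cidec, which fuses droplets, at 7.39, 7.11 and 1.18 and 3962, 3707 and 3809 CPM (log2 9.52, with SE 0.52 and adjusted p = 1.9e-06). In both, undifferentiated library 3 was the lowest of all. Gpd1, which makes the glycerol backbone, rose from 3.59 ± 1.81 to 2037 ± 34.0 CPM (log2 9.15). Cav1, the caveolar coat protein, was the member that fell as labelled, against 2 without the doubted library (log2 -0.25, adjusted p = 0.0458), a call lost without any 1 library other than differentiated LIGHT 1. Of 13 genes of fatty acid uptake, binding and activation 8 rose and 2 fell. Fabp4, the fatty acid carrier of adipocytes, stood at 19.8, 23.7 and 8.65 CPM before and 11788, 7114 and 7393 CPM after (log2 8.98, with SE 0.46 and adjusted p = 1.3e-06), with the doubted library highest, and in deposited FPKM, which divide by gene length, it had the highest level of any gene in differentiated LIGHT cells, 17520, against rank 2530 before. Cd36, a fatty acid transporter, went from 2.31, 1.67 and 0.538 to 679, 842 and 855 CPM (log2 9.05), here with the doubted library lowest of the differentiated. Among acyl-CoA synthetases the isoforms parted: Acsl1 rose from 39.6 ± 4.96 to 2234 ± 92.4 CPM (log2 5.82), while Acsl5 (log2 -1.01) and Acsl4 (log2 -0.39) fell.

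Of 26 tested genes of fatty acid and triglyceride synthesis 20 rose and 5 fell. Among the 26, 2 passed the filter only through the differentiated group and 1 only through the undifferentiated group. Thrsp, a lipogenic regulator (log2 8.47), Dgat2, of the last step of triglyceride synthesis (log2 4.39), and Agpat2, of an earlier step (log2 3.90), rose most among the abundant members. The 5 that fell were the elongases Elovl4 (log2 -3.47), Elovl6 (log2 -0.41) and Elovl5 (log2 -0.31), and the desaturases Fads2 (log2 -0.41) and Fads1 (log2 -0.20), and the call of Elovl5 was lost without differentiated LIGHT 3.

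Secreted adipocyte proteins rose in 15 of 18 tested cases and fell in 1, with 2 members passing the filter only through the differentiated group. Adipoq, the hormone adiponectin, stood at 2.66, 2.09 and 0.753 CPM before and 1451, 1002 and 1003 CPM after (log2 9.30, with SE 0.34 and adjusted p = 2.8e-07). Undifferentiated library 3 was the lowest and the doubted library the highest, and the groups did not come near each other. By FPKM Adipoq moved from rank 10258 to rank 93 among listed genes. Retn, resistin, went from 0.532, 0.366 and 0.0538 to 112, 153 and 147 CPM (log2 8.75), with the doubted library lowest after differentiation. Serpinf1, the secreted factor PEDF, was the member that fell as labelled (2 fell without the doubted library), from 834 ± 10.5 to 676 ± 25.9 CPM (log2 -0.30, adjusted p = 0.00544).

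Most genes of glucose metabolism rose. Of 32 tested genes of glycolysis and pyruvate metabolism 24 rose and 2 fell, and without the doubted library 24 rose and 5 fell. Of the 32, 2 passed the filter only through the differentiated group. Pcx, pyruvate carboxylase, stood at 45.4, 48.1 and 49.6 CPM before and 1668, 1356 and 1469 CPM after (log2 4.97, with SE 0.11 and adjusted p = 2.9e-08), and Pck1, which feeds glycerol synthesis in fat, went from 1, 1 and 0 to 521, 482 and 466 counts, a ratio of 786 (95% counting interval 217 to 6493). Aldoa, aldolase A, rose from 972 ± 45.7 to 4586 ± 1078 CPM (log2 2.24). Eno3 (log2 -2.42), an enolase of muscle, and Gpt2 (log2 -0.52), the mitochondrial alanine transaminase, fell, whereas the cytosolic enzyme Gpt rose from 9, 7 and 0 to 917, 652 and 586 counts (log2 7.15). Pck2, the mitochondrial form of Pck1, stood at 411, 395 and 379 CPM before and 475, 249.9 and 246 CPM after. The doubted library lay above all undifferentiated libraries and the other 2 below them, so Pck2 did not pass as labelled (log2 -0.29, adjusted p = 0.317) and fell without that library (log2 -0.67, adjusted p = 6.1e-08). In 31 of 32 genes of this list the doubted library was above both other differentiated libraries, 96.9%, against 43.9% of all named genes tested.

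Breakdown of branched-chain amino acids rose almost throughout, in 23 of 25 genes. Bcat2, the mitochondrial transaminase of the first step, stood at 60.8, 58.0 and 56.1 CPM before and 408, 372 and 387 CPM after (log2 2.74, with SE 0.07 and adjusted p = 5.1e-08), and Aldh6a1 (log2 3.62) and Dbt, a subunit of the branched-chain dehydrogenase (log2 2.73), rose too. Bcat1, the cytosolic isoform, was the 1 gene that fell, from 247, 231 and 236 to 52.2, 32.3 and 33.5 CPM (log2 -2.60, with SE 0.17 and adjusted p = 5.3e-06). Of 28 tested genes of insulin signalling and glucose transport 16 rose and 7 fell. Tusc5, which helps GLUT4 reach the surface, rose from 0.827, 0.993 and 1.08 to 217, 112 and 121 CPM (log2 7.26). Grb14 (log2 -1.81) and Socs3 (log2 -0.67), both inhibitors of insulin signalling, fell.

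Genes of mitochondria and peroxisomes rose, most of them by small amounts. Of 76 mitochondrial ribosomal proteins 59 rose and 0 fell (0 at an unadjusted p under 0.05, and 0 by DESeq2 and limma-voom), with a median log2 fold change of 0.58, and without the doubted library 60 rose. The lowest log2 fold change in the list was -0.04. Mrpl12 (log2 1.72), Mrpl20 (log2 1.19) and Mrpl41 (log2 1.11) rose most. Of 25 genes of mitochondrial biogenesis, import and dynamics 17 rose and 1 fell. The coactivators Ppargc1b and Ppargc1a, drivers of mitochondrial biogenesis, went from 1.31 ± 0.603 to 14.5 ± 5.00 CPM (log2 3.47) and from 1.14 ± 0.314 to 9.82 ± 1.99 CPM (log2 3.10), while the related Pprc1 fell (log2 -0.75). Of 33 tested peroxisomal genes 26 rose and 1 fell (29 and 2 without the doubted library): Pex11a, which multiplies peroxisomes, rose from 5.68 ± 0.298 to 71.0 ± 2.81 CPM (log2 3.64), and the fatty acid transporter Abcd2 rose too (log2 4.51). Acaa1b, a peroxisomal thiolase, had 1, 2 and 0 counts before and 816, 469 and 354 after, a ratio of 584 (95% counting interval 199.6 to 2836), and Far1, an enzyme of ether lipid synthesis, fell (log2 -0.52).

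Of 32 brown and beige markers 16 were tested, 6 of them passing only through the differentiated group, and 12 rose. Ucp1, the uncoupling protein that defines thermogenic fat, gave 0, 0 and 0 counts before and 0, 2 and 0 after and was too low to test. Cox7a1, a respiratory subunit of brown fat, went from 1, 4 and 1 to 224, 87 and 62 counts (log2 6.00, with SE 0.78 and adjusted p = 0.00026), and without the doubted library, which was the highest, its log2 fold change was 5.18. Cox7a1 was among those that passed only through the differentiated group, so it had to differ. Kcnk3, a potassium channel of brown fat, rose from 6.47 ± 1.45 to 66.4 ± 21.7 CPM (log2 3.36). Antioxidant enzymes split, with 16 higher (47.1%) and 13 lower (38.2%) of 34. Mgst3 (log2 3.21) and Mgst1 (log2 2.64), microsomal glutathione transferases, and Gstz1 (log2 2.21) rose, and Prdx4 (log2 -0.99), Gstt1 (log2 -0.75) and Gpx1 (log2 -0.67) fell.

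Of 23 tested receptors for hormones, metabolites and oxidised lipids 16 rose and 4 fell, and 10 of the 23 passed the filter only through the differentiated group. Hcar1, the lactate receptor of adipocytes, went from 0, 2 and 0 to 438, 413 and 352 counts, a ratio of 643 (95% counting interval 178 to 5318). The members that fell were Il1rl1, S1pr1 (log2 -2.09), a receptor of sphingosine 1-phosphate, Lpar1 (log2 -1.60), a receptor of lysophosphatidic acid, and Ptger4 (log2 -1.38), a receptor of prostaglandin E2.

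All 36 genes of the mitotic spindle, kinetochore and condensin fell, with a median log2 fold change of -1.21, and in all 36 the groups did not overlap, against 67.7% of all genes tested. Kif23, a kinesin of cytokinesis, stood at 76.3, 74.8 and 76.1 CPM before and 14.0, 17.4 and 15.4 CPM after (log2 -2.28, with SE 0.09 and adjusted p = 3.7e-07), and Anln (log2 -1.95), a scaffold of the cleavage furrow, and Ndc80 (log2 -1.79), a kinetochore protein, fell nearly as far. Top2a and Cdc20, whose promoters are shown above, went from 304 ± 4.96 to 125 ± 13.4 CPM (log2 -1.28) and from 172 ± 2.75 to 69.5 ± 4.64 CPM (log2 -1.30). Of 44 replication genes 35 fell and 0 rose in edgeR's test, with 0 rising at an unadjusted p under 0.05 or by DESeq2 or limma-voom, with a median of -0.59, and the highest log2 fold change was 0.06. Pola1 (log2 -1.72), a polymerase subunit, Dbf4 (log2 -1.58), an activator of replication origins, and Pole (log2 -1.31) fell most. Rrm2, which makes deoxynucleotides, stood at 86.9, 90.4 and 88.4 and 84.9, 75.5 and 77.1 CPM (log2 -0.16, adjusted p = 0.0662) and passed only without the doubted library (log2 -0.21, adjusted p = 0.00265). These transcripts fell but stayed abundant: Top2a still stood at 140.1, 115 and 119.6 CPM after differentiation. Among 30 cyclins, kinases, inhibitors and E2F factors 12 fell, Ccnd1 (log2 -1.68), E2f7 (log2 -1.25) and Ccna2 (log2 -1.17) most, and 5 rose, among them Ccng2 (log2 1.77), the retinoblastoma gene Rb1 (log2 1.41) and the inhibitor Cdkn2c (log2 0.65).

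Genes of the actin cytoskeleton and targets of serum response factor or YAP fell in 27 of 31 tested cases and rose in 0 by edgeR, 0 at an unadjusted p under 0.05, and 0 by DESeq2 and limma-voom, with a median of -1.18, and without the doubted library 30 fell. The highest log2 fold change in the list was 0.13. Of the 31, 2 passed the filter only through the undifferentiated group, so they had to differ. Thbs1, thrombospondin 1, stood at 338, 342 and 389.6 CPM before and 23.8, 52.5 and 52.0 CPM after (log2 -3.05, with SE 0.26 and adjusted p = 2.5e-05), with the doubted library lowest, and Ctgf, a YAP target, went from 7.53 ± 0.524 to 0.375 ± 0.0625 CPM (log2 -4.31). Cnn2, a calponin, and Myl9, a myosin light chain, whose promoters are shown above, went from 670.0 ± 7.89 to 210.3 ± 53.1 CPM (log2 -1.67) and from 38.7 ± 3.87 to 9.22 ± 5.61 CPM (log2 -2.05, -1.63 without the doubted library). Lmod1 (log2 -0.73), Tpm2 (log2 -0.42) and Lats2 (log2 -0.29) did not pass as labelled and passed as lower without that library.

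Interferon-stimulated and class I presentation genes fell in 32 of 37 cases, with the lowest median log2 fold change of the 42 lists, -2.00. Ifi44 stood at 88.2, 90.6 and 92.0 CPM before and 3.60, 3.49 and 4.89 CPM after (log2 -4.50, with SE 0.12 and adjusted p = 6.3e-08), and all 3 differentiated libraries, the doubted one included, were low. Oas1a, an activator of RNase L, went from 101, 103 and 93.7 to 3.22, 4.50 and 6.18 CPM (log2 -4.42), Isg15, a ubiquitin-like modifier, from 152 ± 6.07 to 11.5 ± 1.97 CPM (log2 -3.72), and Rsad2, the antiviral enzyme viperin, from 8.37 ± 1.40 to 0.618 ± 0.157 CPM (log2 -3.73). Ifi27 was the 1 member that rose, from 87.8 ± 4.20 to 259 ± 11.5 CPM (log2 1.56), and it has close relatives in the mouse genome between which reads can be split. Chemokines, interleukins and their receptors fell in 23 of 43 tested cases and rose in 5, and without the doubted library 26 fell and 9 rose. Of the 43, 4 passed the filter only through the undifferentiated group and 1 only through the differentiated group. Ccl5, a T cell attractant, went from 12.4, 14.5 and 13.0 to 0.883, 1.22 and 1.47 CPM (log2 -3.47). The 5 that rose were Il1r1 (log2 0.97), Il17rc (log2 0.78), Il15ra (log2 1.32), Cx3cl1 (log2 0.77) and Cxcl13, which was at 0 in all undifferentiated libraries and at 16, 11 and 10 counts after (at least 13.2-fold higher). Cxcl12, which attracts stem cells, stood at 428, 442 and 421 CPM before and 358, 758 and 759 CPM after, with the doubted library below the undifferentiated ones. It did not pass as labelled (log2 0.54, adjusted p = 0.0931) and rose without that library (log2 0.82, adjusted p = 2.9e-09).

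The pathway of LIGHT itself did not move as a block. Of 51 genes of the tumour necrosis factor family and NF-κB 37 were tested, 9 rose and 6 fell, shares of 24.3% and 16.2% that lie under the background. Without the doubted library 13 of 38 rose and 10 fell, against 33.3% higher and 32.6% lower among all genes tested. Tnfaip3, the feedback inhibitor A20, rose from 6.84 ± 0.545 to 21.6 ± 2.55 CPM (log2 1.66, with SE 0.13 and adjusted p = 1.6e-05), and Traf4 (log2 1.03), an adaptor, and Tnfrsf21 (log2 1.36), death receptor 6, rose too. Tnfrsf1b (log2 -1.62), a receptor of tumour necrosis factor, Fas (log2 -1.22) and Nfkbiz (log2 -1.09), an NF-κB cofactor, fell. Relb and Birc3, which act in the branch of NF-κB downstream of the lymphotoxin beta receptor, passed only without the doubted library, with log2 fold changes of 0.65 (adjusted p = 1.2e-06) and 0.42 (adjusted p = 0.00210) against 0.43 (adjusted p = 0.0800) and 0.20 (adjusted p = 0.433) as labelled. Relb stood at 30.3, 32.0 and 32.2 CPM before and 28.5, 49.5 and 49.1 CPM after differentiation, and the doubted library lay below the undifferentiated range, at 28.5 CPM.

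Of 26 tested collagen chains 15 rose (57.7%) and 7 fell (26.9%). Col6a3, a chain of the collagen VI of fat, stood at 530.2, 518 and 599 CPM before and 3744, 2710.3 and 2542 CPM after (log2 2.45, with SE 0.16 and adjusted p = 4.8e-06), and Col5a3 (log2 2.55) and Col15a1, of basement membranes (log2 3.76), rose too. Col8a1 went from 15.3, 12.8 and 13.9 to 1.77, 0.582 and 0.489 CPM (log2 -3.90 as labelled and -4.68 without the doubted library), and Col28a1 (log2 -2.15) and Col12a1 (log2 -1.52) fell. Among matrix proteases and their inhibitors 11 of 27 rose (40.7%) and 8 fell (29.6%): Adamts15 (log2 5.43) and Adamts12 (log2 2.20) rose with Timp4, while Timp3 (log2 -3.67, -4.87 without the doubted library), Adamts6 (log2 -1.89) and Timp1 (log2 -1.64) fell. Of the 27, 3 passed the filter only through the differentiated group. Mmp9, a gelatinase, parted the differentiated libraries: it stood at 44.9, 51.8 and 45.0 CPM before and 4.54, 105 and 101 CPM after, so the doubted library lay below and the other 2 above all undifferentiated libraries. It did not pass as labelled (log2 0.57, adjusted p = 0.537) and rose without the doubted library (log2 1.13, adjusted p = 2.0e-09). Of 29 integrins and laminins 10 rose (34.5%) and 9 fell (31.0%), shares near the background, and 14 rose and 9 fell without the doubted library. As labelled, Itga7 (log2 5.30) and Itga6 (log2 2.06) were among those that rose, and Itga3 (log2 -3.74) and Itgav (log2 -1.20) among those that fell. Of the 29, 3 passed the filter only through the differentiated group and 1 only through the undifferentiated group.

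Markers of preadipocytes and fibroblasts fell in 20 of 32 tested cases and rose in 6. Ly6a, the stem cell antigen Sca-1, stood at 306, 315 and 264 CPM before and 36.5, 26.4 and 25.8 CPM after (log2 -3.32, with SE 0.14 and adjusted p = 5.8e-07), and Ly6c1 went from 130.1 ± 12.8 to 11.1 ± 4.11 CPM (log2 -3.56). Among the 6 that rose, 4 were secreted matrix or signalling proteins named here. Lum, the proteoglycan lumican, went from 0.532, 0.627 and 0.484 to 49.5, 168 and 173 CPM (log2 7.87, with SE 0.64 and adjusted p = 1.8e-05), Dcn, decorin, from 88.3, 102 and 84.8 to 164, 587 and 576 CPM (log2 2.27), and Postn (log2 1.99) and Gas6 (log2 2.52), a ligand of receptor kinases, rose as well. In Lum, Dcn and Postn the doubted library was the lowest of the differentiated libraries. Pdgfra, a receptor that marks adipose progenitors, stood at 173, 178 and 184 CPM before and 105, 257 and 236 CPM after, with the doubted library below and the other 2 above the undifferentiated ones. It passed only without that library (log2 0.47, adjusted p = 2.1e-06, against 0.16 and 0.636).

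The Wnt and Notch list and the Hox list had shares near those of all genes tested, 30.0% higher and 29.1% lower. Of 39 tested genes of the TGF-β and BMP pathways 11 rose (28.2%) and 16 fell (41.0%), with Grem1, a BMP antagonist, going from 192, 188 and 204 to 15.1, 18.1 and 16.9 CPM (log2 -3.54, with SE 0.09 and adjusted p = 4.4e-08) and Inhba, the activin A subunit, falling too (log2 -3.03). Of 29 Wnt and Notch genes 10 rose (34.5%) and 9 fell (31.0%): Fzd4 (log2 2.00) and the coreceptor Lrp5 (log2 2.00) rose, and Wnt4 (log2 -1.83) and Fzd2 (log2 -1.28) fell. Of 39 growth factor genes 15 rose (38.5%) and 17 fell (43.6%). Igf2, a growth factor of fetal tissues, stood at 0.532, 1.15 and 0.699 CPM before and 91.0, 34.8 and 33.9 CPM after (log2 6.04, 5.41 without the doubted library), and the receptor Fgfr3 rose (log2 3.35), whereas Pdgfb (log2 -3.55) and Hgf (log2 -2.88) fell. Of 16 tested Hox genes 4 rose (25%), among them Hoxa4 (log2 0.99), and 4 fell (25%), among them Hoxc13 (log2 -1.33).

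The clearest dependence on the doubted library was in cytosolic ribosomal proteins. As labelled 26 of 77 tested members fell, 33.8%, and 2 rose, and without that library 64 fell and 2 rose, against a background of 32.6% lower. The median of the list, relative to the undifferentiated mean in log2, was -0.01 in differentiated LIGHT 1, -0.38 in differentiated LIGHT 2 and -0.42 in differentiated LIGHT 3. In 74 of 77 members differentiated LIGHT 1 lay above both others, 96.1%. Undifferentiated library 3 was also lower than its group, at -0.15, and the count that fell was 10 and 9 without undifferentiated library 1 or 2 and 11 without differentiated LIGHT 2 or 3. Rps2 stood at 2025, 2060.4 and 1884 CPM before and 1349, 1079 and 999.6 CPM after (log2 -0.80, with SE 0.12 and adjusted p = 0.00058), and Rpl12 (log2 -0.83) and Rps20 (log2 -0.76) fell as well. Rpl9 was 1 of the 2 that rose, from 724, 716 and 632 to 1083, 869 and 896 CPM (log2 0.46), with all differentiated libraries above the undifferentiated ones. Ribosomal protein genes have many processed pseudogenes, so their counts are uncertain between copies.

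**Figure D3:**
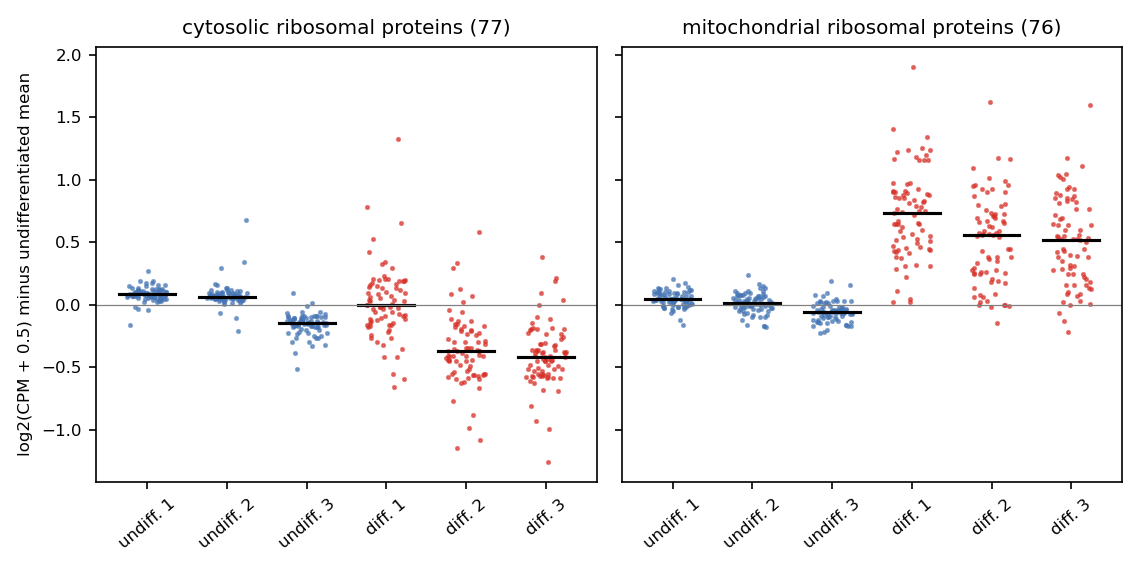
Each point is 1 ribosomal protein gene in 1 library, as log2(CPM + 0.5) minus the mean of the 3 undifferentiated libraries, and bars are medians. Cytosolic genes (77) lie near 0 in the library labelled differentiated LIGHT 1 and near -0.4 in the other 2 differentiated libraries, while mitochondrial genes (76) lie above 0 in all 3.

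ATF4 targets and cytosolic aminoacyl-tRNA synthetases fell in 23 of 33 tested cases and rose in 2, and in 29 and 2 without the doubted library. Slc7a5, the large neutral amino acid transporter, went from 541 ± 18.8 to 255 ± 3.03 CPM (log2 -1.09, with SE 0.06 and adjusted p = 2.9e-06), and its partner Slc3a2 (log2 -0.75) and Shmt2 (log2 -0.82), of one-carbon metabolism, fell too. Vldlr, which takes up triglyceride-rich lipoprotein, was 1 of the 2 that rose (log2 0.75). Atf4 itself stood at 617, 603 and 589 CPM before and 667, 488 and 499.9 CPM after and passed only without that library (log2 -0.29, adjusted p = 0.00022, against -0.13 and 0.386). Of 31 chaperone and heat shock genes 9 rose (29.0%) and 11 fell (35.5%), shares near the 30.0% and 29.1% of all genes tested. Ero1l, an oxidase of the endoplasmic reticulum, stood at 270.3, 274 and 260.0 CPM before and 1685, 625 and 697 CPM after (log2 1.90, 1.30 without the doubted library), and Dnajb9 (log2 1.85) and Xbp1 (log2 1.21) rose, while Hsp90ab1 (log2 -0.61) and Hsph1 (log2 -0.68) fell.

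Lysosomal hydrolases and proton pump subunits rose in 27 of 45 tested cases and fell in 6. Atp6v0a1 (log2 1.60) and Atp6v1e1 (log2 1.01), subunits of the pump, and Tfeb (log2 1.28), the regulator of lysosomal genes, rose, and the protease Ctsl (log2 -1.12) fell. Of 19 genes of cholesterol transport 11 rose and 2 fell (12 and 4 without the doubted library), with Apoe going from 1.71 ± 0.728 to 50.6 ± 15.8 CPM (log2 4.90) and Soat1, which esterifies cholesterol, and Lrp1 falling (log2 -0.86 and -0.51). Of 19 clock genes 9 rose, Bhlhe40 (log2 1.85) among them, and 3 fell, among them Nr1d2 (log2 -0.56). Immediate early genes and dual-specificity phosphatases split into 12 higher (36.4%) and 13 lower (39.4%) of 33, against 30.0% and 29.1% of all genes tested. Spry4 (log2 3.94) and Dusp4 (log2 3.92), feedback inhibitors of MAP kinase signalling, rose, and Fosl1, the AP-1 subunit Fra-1, stood at 12.4, 12.8 and 14.1 CPM before and 238, 88.0 and 102 CPM after (log2 3.44, 2.86 without the doubted library). All 3 tested proliferins, hormones of the prolactin family, rose, from Prl2c2 (log2 0.73) to Prl2c5 (log2 6.74), but their sequences are close to identical, so reads can be split between them. Of the 3, 1 passed the filter only through the differentiated group, so it had to differ.

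**Figure D4:**
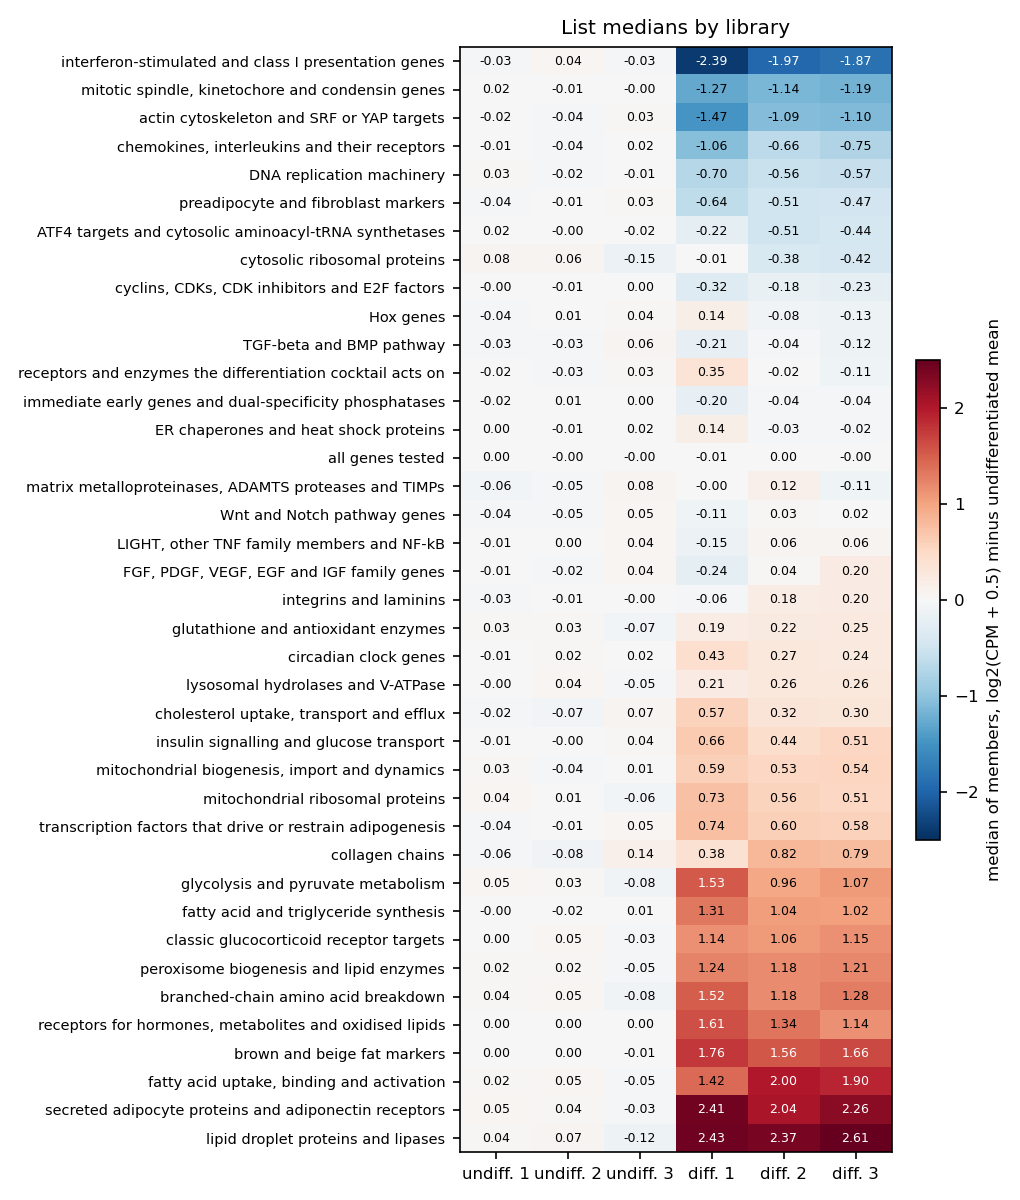
Median over the tested members of each list in each library, as log2(CPM + 0.5) minus the mean of the 3 undifferentiated libraries. Undifferentiated libraries stay near 0, and differentiated LIGHT 1 departs from the other 2 for cytosolic ribosomal proteins (-0.01 against -0.38 and -0.42) and for glycolysis (1.53 against 0.96 and 1.07).

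Markers of other cell types were few. Of 11 leukocyte markers 3 were tested, and their summed level was 12.8 to 14.0 CPM before and 7.94 to 9.15 CPM after, most of it from Cd14, which fell (log2 -0.89). Of the 3, 1 passed the filter only through the differentiated group, so it had to differ. Cd68 rose (log2 1.88). Ptprc and Itgam, which define leukocytes, gave 25 and 1 counts over the 3 undifferentiated libraries and 3 and 0 over the differentiated ones. The interferon list, by comparison, summed to 4712 to 4931 CPM before and 2062 to 2673 CPM after differentiation. Calls among the leukocyte markers were 1 higher and 1 lower, and the part of leukocytes in the falls of the interferon and chemokine lists was not tested. Of 15 markers of muscle, bone and cartilage 5 were tested, with sums of 115 to 124 and 80.6 to 91.4 CPM, and Sox9 (log2 -0.85) and Runx2 (log2 -0.64) fell while Des (log2 1.58) and Alpl (log2 5.09) rose. Of the 5, 1 passed the filter only through the differentiated group, so it had to differ. Of 12 endothelial and epithelial markers 4 were tested, with sums of 2.37 to 3.40 and 3.49 to 10.7 CPM, and Vwf (log2 -1.69) and Krt7 (log2 -1.51) fell while Krt18 and Krt8 (log2 4.92) rose. Of the 4, 2 passed the filter only through the differentiated group and 1 only through the undifferentiated group, so they had to differ. Krt18 was at 0 before and at 51, 14 and 10 counts after, at least 26.7-fold higher. Pecam1 and Cdh5, which define endothelium, were too low to test. Cd68, Alpl, Krt18, Krt8, Krt7 and Fads1, like the promoter genes outside the naming rule (Isg15, Top2a, Cdc20, Cnn2 and Myl9), were named after their values were seen.

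How the response differs from that of control cells was tested as the LIGHT response minus the control response. With all 12 libraries as labelled, 1214 of 12993 genes passed edgeR's test, 9.34%, with 660 higher (5.08%) and 554 lower (4.26%) in LIGHT cells. The library labelled differentiated control 1 also goes against its label, with 113 Tnfsf14 counts against 0 to 1 in the other control libraries. Its score on the second principal component, -22.6, was like those of differentiated LIGHT 2 (-22.3) and 3 (-19.4). Differentiated control 2 and 3 scored 21.9 and 19.4. In the fit of 12 libraries each differentiated group thus holds a library that lies with the other line. Without differentiated control 1 and differentiated LIGHT 1 the count was 4077 of 13150, 31.0%, with 1964 higher (14.9%) and 2113 lower (16.1%) in LIGHT cells. Leaving out 1 library from the 12 moved the count to 1868 without differentiated control 1, to 735 and 675 without undifferentiated LIGHT 1 and 2 and to 768 and 791 without undifferentiated control 2 and 3. In the fit of 10 libraries the fall of dividing-cell genes was smaller in LIGHT cells: the difference passed as higher in 30 of 36 mitosis genes and in 33 of 44 replication genes, and no difference that passed was lower. The median log2 fold change of the mitosis list was -1.19 in LIGHT and -1.60 in control cells, and that of the replication list -0.57 and -1.12. With all 12 libraries as labelled the differences that passed were 12 and 14, again all higher. The actin list gave -1.10 and -1.72, and all 24 of 32 differences that passed were higher, against 7 of 31 as labelled.

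In several other lists the differences that passed in that fit were mostly lower in LIGHT cells, against 16.1% lower among all genes tested. These included lipid synthesis (12 lower and 1 higher of 27), insulin signalling (12 and 1 of 28) and peroxisomes (13 and 1 of 34). With the 12 libraries as labelled 5, 4 and 4 of them were lower and 1, 0 and 0 higher, where 4.26% of all genes were lower. Lysosomal genes went the other way, with 22 higher and 1 lower of 46, and 5 and 1 with the 12 libraries. In the 4 lists described next, far fewer passed with the 12 libraries too. For glycolysis and pyruvate metabolism the difference passed as lower in 25 of 32 genes and as higher in 1, with median log2 fold changes of 1.02 and 1.57, but no gene of the list passed with the 12 libraries, by edgeR. For branched-chain amino acid breakdown it passed as lower in 18 of 25, with medians of 1.25 and 1.64, and in 6 with the 12 libraries. Cytosolic ribosomal proteins gave 62 of 77 lower and 2 higher, with medians of -0.41 and 0.06, but with the 12 libraries 3 were lower and 2 higher. ATF4 targets and synthetases, whose medians were below 0 in both lines, gave 20 of 33 lower, with medians of -0.51 and -0.17, and 5 lower with the 12 libraries. Of 18 secreted adipocyte proteins 3 differences passed as higher and 4 as lower, and of 21 droplet genes 7 passed as lower, against 14.9% higher and 16.1% lower among all genes tested, and with the 12 libraries as labelled 1 was higher among the secreted proteins and 1 lower among the droplet genes. For Adipoq the difference was -0.01 (adjusted p = 0.990) and for Fabp4 -0.02 (adjusted p = 0.972), while Cebpa rose less in LIGHT cells (4.83 against 5.54, difference -0.71, adjusted p = 0.00032) and Pparg slightly more (0.35, adjusted p = 0.0267). Of 38 genes of the tumour necrosis factor family and NF-κB 11 differences passed as higher and 2 as lower, and 2 and 1 with the 12 libraries. Ltbr was among those higher in the fit of 10 libraries (log2 difference 0.26, adjusted p = 0.0102). Among the genes described above, the response of Col5a3 was lower in LIGHT cells (log2 difference -1.55, adjusted p = 1.4e-08), and those of Mmp9 (1.96, adjusted p = 9.1e-08) and Dusp4 (2.46, adjusted p = 9.1e-09) were higher.

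**Figure D5:**
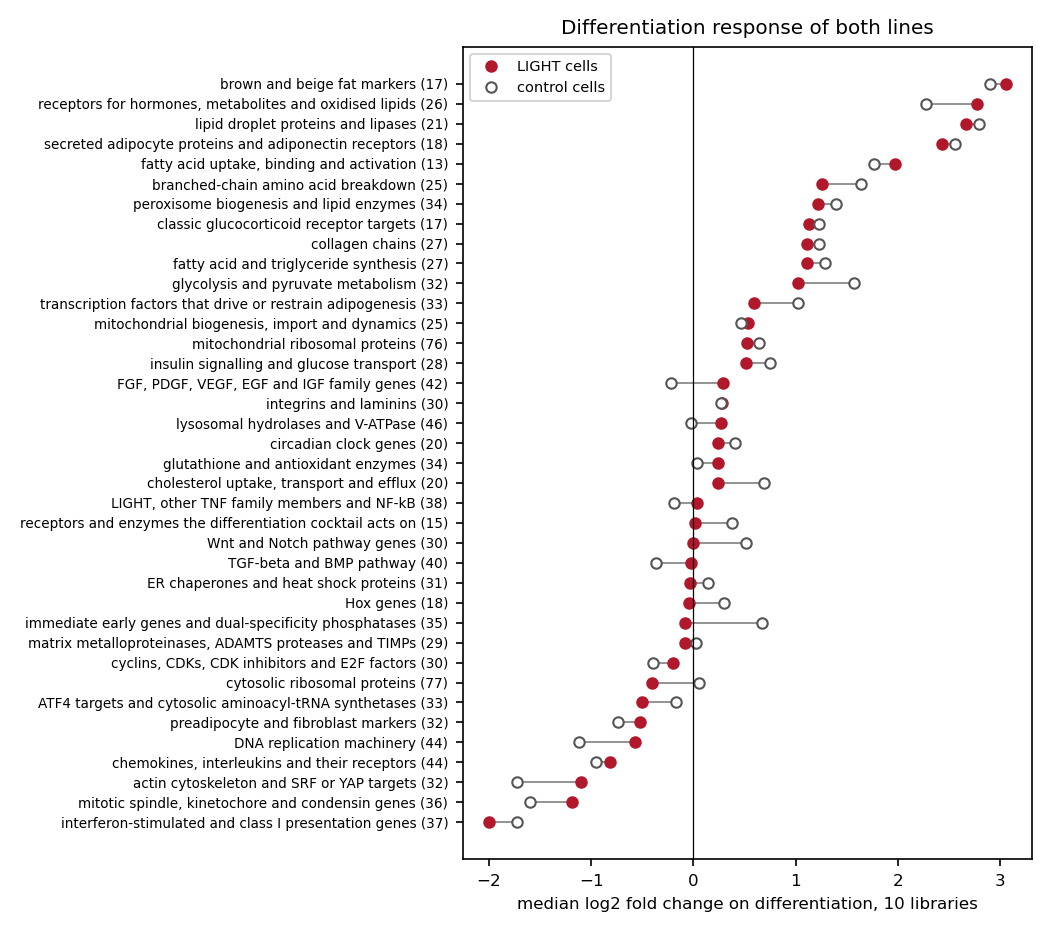
Median log2 fold change on differentiation of each list in LIGHT cells (filled) and control cells (open), from the fit of 10 libraries without differentiated LIGHT 1 and differentiated control 1, with the number of members in brackets. The lines lie apart for the mitosis list (-1.19 and -1.60), the actin list (-1.10 and -1.72) and glycolysis (1.02 and 1.57), and close together for droplet proteins and secreted proteins.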

How the data were processed

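RNA-seq tables of 12 libraries of 3T3-L1 cells were analysed, 1 table per library, and the 6 of LIGHT cells carry the results. The authors deposited, per the file headers, an expected count per gene, which shares reads between transcripts, and an FPKM value, which divides by gene length and library size. Genes at 0 are not listed in the deposited tables and were read as 0. The submitters' processing notes name the build mm8, while aligner, counting program and strand setting were not given in the sources used here. Between 4.228% and 4.812% of the expected counts of a LIGHT library belonged to gene models without a symbol. These were kept in the fit and are not named.

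Expected counts were rounded, filtered with filterByExpr of edgeR 4.0.16 (minimum count 10, R 4.3.3), scaled by TMM and tested with the quasi-likelihood F-test, called at a Benjamini-Hochberg adjusted p under 0.05 over all genes tested. Standard errors were taken as the size of the log2 fold change over the root of F. The 6 LIGHT libraries entered the main test, and a second fit of all 12 tested the difference between the responses of the lines. Depth was 16506008 to 19050595 expected counts, so that 3 counts are 0.1575 to 0.1818 CPM. For genes with 1 to 3 counts in a group the ratio has an exact 95% interval, and for genes with 0 counts the fold is against 3 counts over the group. These cover counting error only. The alternatives were DESeq2 1.42.0, limma-voom (limma 3.58.1), RLE scaling, library totals, no filter, a minimum count of 50, all 12 libraries, 10 libraries without both doubted libraries, a replicate block and each library left out.

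Genes named were Tnfsf14, Ltbr, Tnfrsf14, Adipoq, Slc2a4, Pparg, Cebpa, Fabp4 and Ucp1, the 12 largest rises and falls among genes called, not overlapping and at 5 CPM or more in the higher of both groups, the 3 largest rises and falls of each list, members called against the direction of most of their list, members whose call changed without differentiated LIGHT 1, the 6 largest differences between the lines each way and the 10 highest FPKM of each group. Not every gene that this rule picks is reported here. The members, the lists and the rule were chosen with earlier results of these data known. Promoters came from RefSeq (GRCm38.p6), 32851 promoters of 27025 genes, of which 12347 matched 9696 tested genes by gene identifier. Python 3.11.15 with matplotlib 3.10.9 drew the figures.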

Additional observations from a re-analysis of the deposited data

Results flagged for a closer look

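The genes in this section are those with the largest tested differences between the differentiation responses of LIGHT and control cells, from edgeR's fit of 10 libraries without differentiated LIGHT 1 and differentiated control 1. Each value is a log2 difference, LIGHT response minus control response, and the 2 responses share no libraries.

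Olr1, the receptor for oxidised lipoprotein, rose more in LIGHT cells by 6.96 (SE 0.95, adjusted p = 3.1e-05). It stood at 0 in all undifferentiated LIGHT libraries and at 0.346, 1.07 and 0.641 CPM in undifferentiated control libraries, so the fitted value depends on the prior count, while the differentiated libraries of both lines lay between 17.1 and 27.0 CPM. U90926, a transcript without a described role here, differed by 4.71 (adjusted p = 0.00090). It stood at 6.06, 4.89 and 6.53 CPM in undifferentiated control libraries and at 0.650, 0.367 and 0.376 CPM in undifferentiated LIGHT libraries. Vstm2a, a secreted regulator of preadipocytes, differed by 3.85 (adjusted p = 2.9e-06), with 0.591, 0.157 and 0.215 CPM in undifferentiated LIGHT libraries and 8.03 and 7.50 CPM in differentiated LIGHT 2 and 3. Rtn4r, the Nogo receptor, differed by 3.43 (adjusted p = 5.7e-07), and Rn18s, the 18S ribosomal RNA, by 4.60 (adjusted p = 0.00352). Rn18s stood at 0 CPM in undifferentiated LIGHT 3 and differentiated control 2 and reached at most 9.44 CPM, in undifferentiated control 2.

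Fosb, an AP-1 subunit, differed by -3.85 (SE 0.56, adjusted p = 3.4e-05). It stood at 22.7, 22.7 and 9.23 CPM in undifferentiated LIGHT libraries against 1.40 to 1.57 CPM in undifferentiated control libraries, and all differentiated libraries of both lines were at 1.34 to 2.18 CPM. Gpt, the cytosolic alanine transaminase, differed by -6.17 (adjusted p = 0.00210), with 0 counts in all undifferentiated control libraries, so that this value too depends on the prior count. Itgad, an integrin subunit, differed by -4.41 (adjusted p = 0.00702), H19, an imprinted noncoding RNA, by -3.62 (adjusted p = 1.1e-05), and Car9, a carbonic anhydrase induced by hypoxia, by -3.61 (adjusted p = 0.0234). Undifferentiated control libraries held 0, 0.0562 and 0 CPM of Itgad and 0.0577, 0 and 0 CPM of Car9, so both values depend on the prior count as well. Tmem254c, which has near-identical copies, differed by -3.94 (adjusted p = 0.0130), and the value rests on undifferentiated LIGHT 3, at 41.2 CPM against 2.01 and 2.93 CPM in libraries 1 and 2. With all 12 libraries as labelled the differences of Olr1, U90926, Vstm2a, Rn18s and Fosb passed as well, at 6.70, 4.06, 3.18, 5.49 and -3.56, and those of Gpt, Itgad, Tmem254c, H19, Car9 and Rtn4r did not.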

How the results depend on the processing

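The number of genes changed by differentiation, 7429, stayed within 1.5 times under all alternatives run: 7283 with DESeq2, 7438 with RLE, 7493 with library totals, 7586 with no filter, 6901 with a minimum count of 50, 7612 in the fit of 12 libraries, 8432 in that of 10, 7219 with the replicate block, 7479 with limma-voom, and 6331 to 8422 with 1 library left out. The share of calls that were higher was 50.8%, and 43.5% with library totals. The difference between the lines was less stable. Its 1214 calls (660 higher, 554 lower) became 4077 (1964 and 2113) without both doubted libraries and 747 (392 and 355) with the replicate block, and with 1 library left out they ranged from 675 to 1868 (349 to 982 higher, 326 to 886 lower). TTTGAA in mitosis promoters went from 45.5% to 78.8% with the wider window. For all of these except the wider window, which adds bases, the cause was not tested.

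Of 327 genes under 15 settings, 4471 of 4882 comparisons kept direction and call, 254 gained a call, 53 turned, the rest lost a call, and 223 genes never changed. Among genes in the text, Tnfsf14 was -1.01 and Mmp9 -0.31 with limma-voom, and H19 was -0.61, Rtn4r 0.21 and Ddit4 -0.20 in the fit of 10 libraries. With 1 library left out, Pdgfra ranged from -0.0644 (without differentiated LIGHT 2) to 0.47, Ddit4 from -0.20 (without differentiated LIGHT 1) to 0.27 (without differentiated LIGHT 2), H19 from -0.61 (without differentiated LIGHT 1) to 1.02, Rtn4r from -0.67 to 0.21 (without differentiated LIGHT 1), and Tmem254c from -3.38 to 2.52 (without undifferentiated LIGHT 3). Of the 84 counts of list members, 68 of 1260 alternatives moved them by over 1.5 times. Same-numbered libraries deviated together only weakly (pairing correlations 0.0568, 0.0707 and 0.0369, against -0.0563 to 0.0066 for other pairs), and each sample correlated best with its own number, a hint from the data and not from the design. The main limits are 2 libraries that go against their labels, 3 libraries a group from cultures not said to be separate, an unstated day of harvest, and a depth at which genes under 3 counts in a library cannot be told from 0.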
